A study of Homo sapiens with 12 samples.

Results

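Poly(A) RNA of T47D-MTVL cells that expressed the R1810A form of RNA polymerase II (RNAP2) was compared with that of cells that expressed the wild-type (WT) form. The 4 libraries, 2 labelled R1810A and 2 labelled WT, were chosen by their titles and are 4 of the 12 libraries of the series. T47D is a hormone-responsive human breast cancer line, and the MTVL derivative carries 1 copy of a luciferase reporter behind the MMTV promoter. In both groups HA-tagged RNAP2 made resistant to alpha-amanitin was introduced by transient transfection for 24 hours, and 6 µg/ml alpha-amanitin was then present for 12 hours. The medium of both held charcoal-stripped serum without phenol red, and no R5020, a synthetic progestin, was given. The labels name no siRNA for either group, and do not state how many cells took up the DNA. They also leave unsaid whether replicates were grown apart, so the p-values rest on a spread that could be technical alone. The other poly(A) libraries of the series, 2 after a PADI2 siRNA (siPADI2) and 2 after a control siRNA (siCtrl), are used below for one comparison and share no library with these 4. For them no transfected RNAP2 and no alpha-amanitin is named.

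RNAP2 makes messenger RNA, and the tail of its largest subunit, the C-terminal domain (CTD), is a row of repeated heptads whose modifications recruit the factors for elongation, splicing and 3′ end formation. Alpha-amanitin binds and blocks the cell's own RNAP2, so that a resistant, transfected form has to carry transcription. R1810 is an arginine in the CTD. It can be methylated, and PADI2, a peptidylarginine deiminase, can turn arginine into citrulline; the R1810A form has alanine there and cannot carry either change. The comparison asks which transcripts differ when this residue is lost.

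The codon lies in POLR2A, the gene of the largest subunit, at GRCh38 chr17:7513692-7513694 on the plus strand. It is shown here with its neighbours, the arginine codon in capitals, because it is the base triplet that the mutant form changes.
POLR2A codon of R1810: tactccccttccagcccaCGAtacacacca
The deposited gene counts do not show which form of the codon a fragment carried, so the mutation itself could not be checked in these libraries.

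Total counts were 122245888 and 127192336 in the R1810A libraries and 128549973 and 130811834 in the WT libraries. Mitochondrial transcripts took 12.1% and 7.73% of counts in R1810A and 10.4% and 7.27% in WT, the higher share being that of the first replicate in each group. Luminal markers were present in all 4 libraries, with 9 of 10 tested and a summed level of 7605 and 8336 CPM (counts scaled by the normalized library size) in R1810A, against 11247 and 11720 CPM in WT. TFF1, a classical marker of estrogen-driven luminal cells, was under 1 CPM in all 4. Fibroblast and mesenchymal markers summed to 66.0 and 56.4 CPM in R1810A and 64.0 and 48.7 CPM in WT, with COL3A1, COL1A2 and PDGFRB under 1 CPM. Endothelial markers summed to at most 0.122 CPM and immune markers to at most 1.44 CPM. Basal markers summed to 15.0 and 15.0 CPM in R1810A and 26.8 and 28.9 CPM in WT, with KRT5 and KRT14 under 1 CPM.

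PADI2 (hg19 chr1:17393256-17445948, minus strand) was low in the libraries labelled R1810A, although their label names no PADI2 siRNA. It stood at 3.16 and 2.33 CPM in R1810A, against 49.0 and 50.4 CPM in WT (log2 fold change −4.18, standard error (SE) 0.162, edgeR quasi-likelihood test, adjusted p = 0.00014). The groups did not overlap, and no other gene named below fell by as much. The fall in siPADI2 libraries relative to siCtrl was −3.66 on the log2 scale. Every direction given for the R1810A libraries therefore belongs to libraries that differ from WT in PADI2 as well as in the label's polymerase form, and the effects of both cannot be told apart here. PADI3, a neighbouring deiminase gene on the same chromosome, was lower too, at 26.6 and 27.6 CPM in R1810A and 64.3 and 67.5 CPM in WT (−1.28, SE 0.0497, adjusted p = 6.0e-06).

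POLR2A (hg19 chr17:7387685-7417933, plus strand) stood at 365 and 359 CPM in R1810A, against 516 and 526 CPM in WT (log2 fold change −0.52, SE 0.0468, adjusted p = 0.00012). Its counts can hold both the cell's own transcript and that of the transfected DNA, and the 2 sources were not separated.

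**Figure D1:**
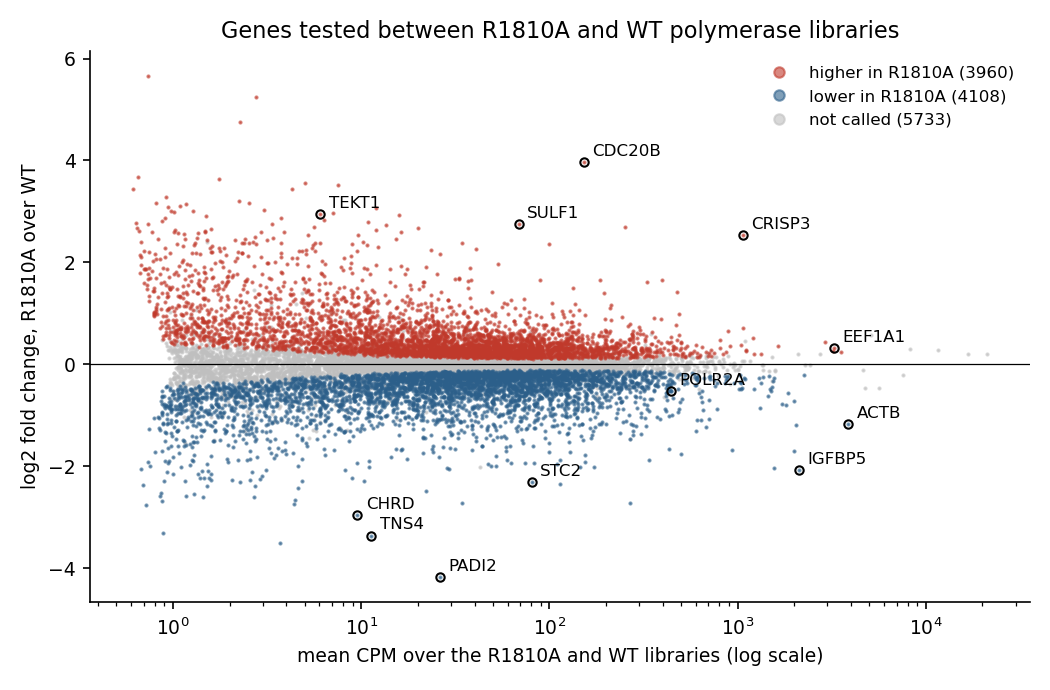
Mean level over the 4 libraries (CPM, log scale) against the log2 fold change of R1810A over WT for the 13801 genes tested; red genes were higher in R1810A, blue genes lower and grey genes not called at an adjusted p of 0.05. Called genes lie on both sides of 0 at every level, and PADI2 is the lowest of the labelled genes.

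Differences were widespread and mostly small. Of 13801 genes tested, 8068 (58.5%) passed an adjusted p of 0.05, 3960 (28.7%) higher and 4108 (29.8%) lower in R1810A. With other scalings the balance turned to more rises, 4534 higher and 3388 lower with total counts as library sizes and 4615 higher and 3684 lower with upper-quartile scaling. The 3 percentages are the background against which the counts of gene groups below are to be read. Genes that passed with at least a 2-fold difference made up 7.93% of those tested, 565 higher and 529 lower, and at least 4-fold 138 and 56. Of the called genes 5370 (66.6%) differed by less than 1.5-fold, and the median size of a called difference was 0.43 on the log2 scale. The levels of the 2 R1810A and 2 WT libraries did not overlap for 79.3% of genes tested. Against a null of a 1.5-fold difference, 1641 genes passed (779 higher and 862 lower).

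The genes tested had at least 1 CPM of the total count in both libraries of one group, which 13053 genes met in both groups, 422 in R1810A alone and 326 in WT alone. Of those 422 genes 335 were called higher and of those 326 genes 245 were called lower, directions that the filter itself fixes. Just inside the filter, ENSG00000255882 had 0.556 and 0.786 CPM in R1810A and 1.22 and 1.00 CPM in WT; just outside it, SLC25A41 had 1.25 and 0.998 CPM in R1810A and 0.747 and 0.612 CPM in WT.

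Among protein-coding genes at 10 CPM or more, the largest rise by fold was that of CDC20B (hg19 chr5:54408799-54469005, minus strand), a gene of multiciliated cells. It stood at 285 and 290 CPM in R1810A, against 18.4 and 18.4 CPM in WT (log2 fold change 3.97, SE 0.0469, adjusted p = 3.1e-07). HOATZ, which is needed for motile cilia in mice, had 13.4 and 14.3 CPM in R1810A and 1.17 and 1.24 CPM in WT (3.52). CFAP141 (2.97) and TEKT1 (2.95), which encode proteins of ciliary microtubules, followed among the 15 protein-coding genes with the largest rise, with ZBBX at 2.54. The other genes of that set were the rhomboid-like gene RHBDL3 (3.07), TXLNB (2.94), LRP2BP (2.83), the calpain gene CAPN8 (2.80), SULF1, which encodes an enzyme that trims sulfate from heparan sulfate (2.74), the glycoprotein gene GPNMB (2.70), CRYM, which encodes a thyroid hormone binding protein (2.67), DNAJC12 (2.64), the ubiquitin ligase adaptor gene KLHL13 (2.59) and CRISP3 (2.53). CAPN8 was the least even of them, with 22.7 and 15.3 CPM in R1810A and 3.21 and 2.25 CPM in WT, its first replicate being the higher in each group.

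By level, the largest rise among called genes was that of CRISP3 (hg19 chr6:49695097-49712150), which encodes a secreted cysteine-rich protein. It had 1771 and 1854 CPM in R1810A and 310 and 317 CPM in WT. Next came genes with small folds at high levels: the coatomer gene COPA (log2 fold change 0.72), the chaperone genes HSP90AA1 (0.44) and HSPA8 (0.24), the elongation factor gene EEF1A1 (0.32) and TFRC, the transferrin receptor gene (0.26). HSPA8 was the closest to the threshold, at an adjusted p of 0.048.

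Among the falls of genes at that level, TNS4 (hg19 chr17:38632080-38657849), which encodes a focal adhesion protein, came after PADI2. TNS4 stood at 2.13 and 1.89 CPM in R1810A, against 21.3 and 20.0 CPM in WT (log2 fold change −3.36, SE 0.0886, adjusted p = 2.5e-06). CHRD, the gene of the BMP antagonist chordin, had 2.32 and 2.02 CPM in R1810A and 18.04 and 15.8 CPM in WT (−2.96). SRARP, which encodes a regulator of steroid receptors, had 6.11 and 7.20 CPM in R1810A and 37.7 and 37.0 CPM in WT (−2.49). The set of 15 also included CLEC3A (−2.72), the myotrophin gene MTPN (−2.35), the stanniocalcin gene STC2 (−2.31), the claudin gene CLDN8 (−2.30), ZMAT4 (−2.23), IGFBP5 (−2.08), the proteoglycan gene FMOD (−2.08), the mitochondrial serine carrier gene SFXN1 (−2.06), ARHGEF6 (−2.04) and TMEM52B (−2.02).

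By level, the largest fall among called genes was that of IGFBP5 (hg19 chr2:217536828-217560248), which encodes a binding protein of insulin-like growth factors. It had 779 and 845 CPM in R1810A and 3327 and 3552 CPM in WT. ACTB, the beta-actin gene often used as a reference transcript, had 2331 and 2420 CPM in R1810A and 5250 and 5479 CPM in WT (log2 fold change −1.18, SE 0.0836, adjusted p = 4.9e-05). The prolactin receptor gene PRLR (−1.70) and the keratin genes KRT19 (−1.19) and KRT23 (−1.67) were also among the largest falls by level. In each of these genes both R1810A libraries lay below both WT libraries. The groups did not overlap, in either direction, for 79.3% of all genes tested.

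**Figure D2:**
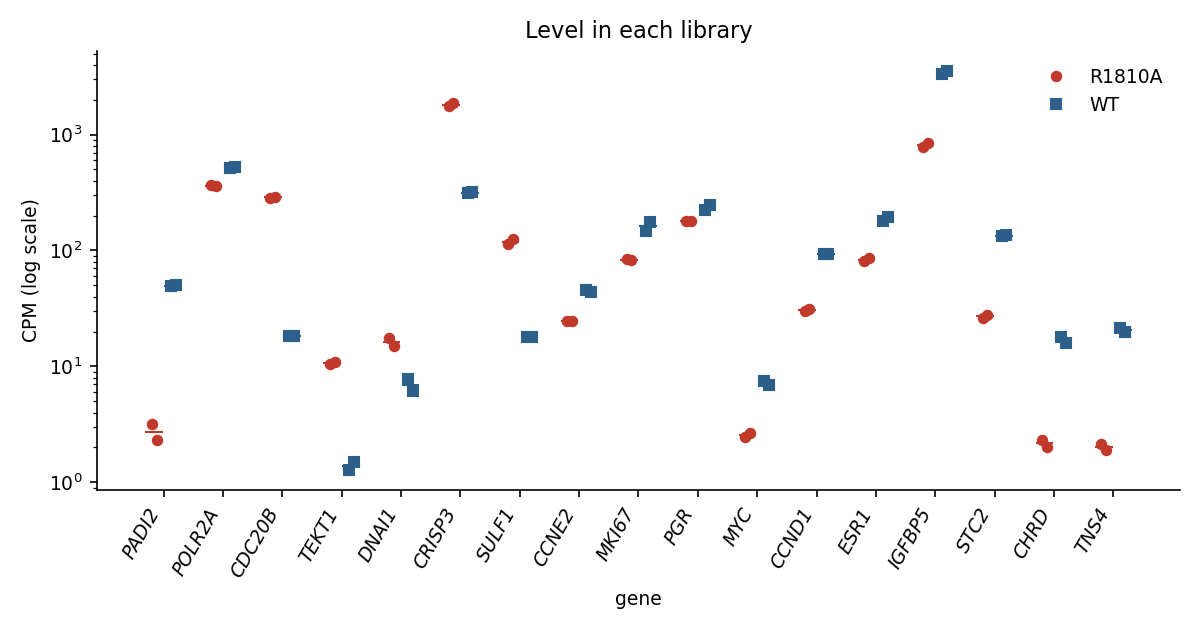
Level of 17 genes in each library (CPM, log scale): red circles are the 2 R1810A libraries, blue squares the 2 WT libraries and short lines the group means. Within a gene the 2 libraries of a group lie close together and the groups do not overlap in any of the 17. The 17 were picked for display, and the groups did not overlap for 79.3% of all genes tested.

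Genes of DNA replication and mitosis were lower in R1810A almost throughout. Of 41 G1/S and DNA replication genes tested 39 were lower and the other 2, CHAF1B and CDT1, did not pass (median log2 fold change −0.59). Of 45 G2/M genes 44 were lower and the other, TTK, did not pass (median −0.63), against 29.8% of all genes lower and a median of −0.01 over all genes tested. TK1, which encodes a kinase of the nucleotide salvage pathway, had 34.8 and 39.0 CPM in R1810A and 104 and 111 CPM in WT (−1.54). The licensing factor genes CDC6 (−1.45) and MCM2 (−1.45) and the ribonucleotide reductase gene RRM2 (−1.30) were the next largest. MKI67, the gene of the proliferation antigen Ki-67, had 83.7 and 82.7 CPM in R1810A and 148 and 176 CPM in WT (−0.96, SE 0.0902, adjusted p = 0.00081). The mitotic kinesin genes KIF14 (−1.03) and KIF23 (−0.90) and the kinase gene AURKB (−0.94) were the other large falls of that list. In bulk RNA, fewer cells in a phase and less RNA per cell cannot be told apart.

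Falls in the G2/M list were even, from −0.18 for CKS2 to −1.03 for KIF14, and 14 of its members passed the test against a 1.5-fold difference; of the G1/S list 19 did. Upstream regulators were lower as well. CCND1, the cyclin D1 gene (hg19 chr11:69455855-69469242), had 30.3 and 31.2 CPM in R1810A and 92.6 and 94.0 CPM in WT (log2 fold change −1.60, SE 0.0433, adjusted p = 2.7e-06). MYC had 2.45 and 2.66 CPM in R1810A and 7.45 and 6.92 CPM in WT (−1.49, SE 0.0991, adjusted p = 3.7e-05). CDK2 (−0.96) and the inhibitor gene CDKN2A (−1.05) were also lower. CDK6, which encodes a kinase partner of D cyclins, was higher, at 19.6 and 18.98 CPM in R1810A and 7.07 and 7.92 CPM in WT (1.36). Of the 14 genes of D cyclins, their kinases and CDK inhibitors tested, 4 were higher and 7 lower.

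The promoters of these lists were searched for elements known from cell cycle genes. A promoter here is the window from 250 bases before to 50 after the gene start in RefSeq, on GRCh38.p14, searched on both strands; 38 of the 45 G2/M genes and 35 of the 41 G1/S genes matched a promoter by symbol. TTTGAA, the cell cycle homology region (CHR) read by the DREAM complex, was in 73.7% of the G2/M promoters, in 9.54% of the promoters of all genes tested and in 15.4% of all promoters. The E2F core GCGGGAA was in 45.7% of the G1/S promoters, against 10.2% for all genes tested and 6.56% for all promoters. CCAAT was in 78.9% of the G2/M promoters, against 37.0% and 35.7%, but also in 72.7% of the unfolded protein and stress response promoters and 54.3% of the G1/S promoters. A match describes the window and does not show binding. The windows around TTTGAA are printed for the genes named above whose promoter holds it, in the direction of the gene, with the element in capitals (for KIF14 it lies on the other strand and reads TTCAAA).
KIF14, chr1:200620733-200620762: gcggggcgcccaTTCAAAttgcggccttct
KIF23, chr15:69414282-69414311: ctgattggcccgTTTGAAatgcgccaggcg
MKI67, chr10:128126453-128126482: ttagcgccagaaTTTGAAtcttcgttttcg

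Genes of estrogen response and luminal identity leaned lower. ESR1, which encodes estrogen receptor alpha (hg19 chr6:151977826-152450754), had 80.9 and 86.3 CPM in R1810A and 181 and 194 CPM in WT (log2 fold change −1.16, SE 0.055, adjusted p = 1.1e-05). PGR, the progesterone receptor gene and itself an estrogen target, had 179 and 180 CPM in R1810A and 223 and 248 CPM in WT (−0.39, SE 0.0589, adjusted p = 0.0014). Of 35 estrogen response genes tested 20 were lower and 6 higher (median −0.34), and 33 of the 35 passed the filter in both groups. STC2, CCND1, TFF3 (−1.38) and AGR3 were the called members with the largest differences. AGR3, a disulfide isomerase gene, was higher, at 53.8 and 53.9 CPM in R1810A and 22.2 and 21.7 CPM in WT (1.30). GREB1, a sensitive estrogen target, had 78.0 and 77.2 CPM in R1810A and 83.0 and 84.6 CPM in WT and did not pass (adjusted p = 0.052).

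Of 34 luminal identity genes 18 were lower and 7 higher (median −0.25), including CLDN8, PRLR, the zinc-binding glycoprotein gene AZGP1, at 21.4 and 21.5 CPM in R1810A and 59.98 and 60.9 CPM in WT, and the receptor gene ERBB3 (−1.31). GATA3, a transcription factor gene of the luminal lineage, had 449.3 and 466 CPM in R1810A and 855 and 856 CPM in WT (−0.90), while its partner FOXA1 had 356 and 361 CPM in R1810A and 381 and 396 CPM in WT and did not pass (adjusted p = 0.074). Of 21 progestin and glucocorticoid response genes 11 were lower and 3 higher, with the metallothionein gene MT2A at −1.15 and ELF5 at 0.73. Basal, stromal, endothelial and immune markers gave 8 genes tested, 3 lower (FN1 −1.05, ACTA2 −1.20, MYLK −0.83) and 1 higher (LUM 1.11).

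The motile cilium program went the other way. Of 39 of its genes tested 31 were higher and 2 lower (median log2 fold change 1.23), 25 of the called members differing by at least 2-fold; 37 of the 39 passed the filter in both groups. The regulators of multiciliated cells were among them. FOXJ1, the master factor of motile cilia, had 35.6 and 41.4 CPM in R1810A and 7.99 and 8.37 CPM in WT (2.23, SE 0.086, adjusted p = 9.3e-06). MCIDAS (1.48) and CCNO (1.68), which act early in making many basal bodies, were also higher. Structural genes followed, such as CFAP126 with 13.8 and 16.02 CPM in R1810A and 2.92 and 2.87 CPM in WT (2.37) and the dynein chain gene DNAI1 with 17.6 and 15.0 CPM in R1810A and 7.74 and 6.12 CPM in WT (1.23). TEKT4, with 1.67 and 1.26 CPM in R1810A and 0.169 and 0.154 CPM in WT (3.17), and CFAP52 (2.46) passed the filter in R1810A alone, which fixes their direction. TP73 (−0.56) and STIL (−0.15) were the 2 that fell. Cycling regulators can be part of this program: PLK4 and MYB, which also sit in cell division, were higher by 0.68 and 1.07.

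The X-box, the element bound by RFX factors at ciliary genes, was in 7 of the 30 promoters of this list that matched (23.3%), against 2.47% of the promoters of all genes tested and 1.82% of all promoters. Among genes at least 2-fold higher in R1810A it was in 7.90% of 405 promoters, and among genes at least 2-fold lower in 1.66% of 362. The windows of these 7 genes are printed with the element in capitals, to show how the elements vary; the DNAI1 and TEKT4 elements match on the other strand.
CCDC40, chr17:80036637-80036665: ttgacagcGTCGCCTAGCAACgggaaatg
CFAP126, chr1:161367882-161367910: cttctgcaGTTGCCAAGCAACgagtgtaa
CFAP45, chr1:159900163-159900192: ggctagtgGTTGCCAAGGTAACgcgtcaac
CCNO, chr5:55233824-55233853: gggctccgGTTGCCCAGGTAACgcaggacg
DNAI1, chr9:34458798-34458826: gctggtcgGTTGCTGGGTAACcgcgtcag
SPAG16, chr2:213284272-213284301: gcaacatcGTTGCCACGGTAACtgggaggc
TEKT4, chr2:94871398-94871426: gagatcccGTTTCTTGGCAACaggaagct
CFAP45 was higher by 2.17 and SPAG16 by 0.38 on the log2 scale, and CCDC40 (0.57) did not pass.

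CDC20B is the host gene of the miR-449 family, which shares its seed with miR-34 and acts in multiciliated cells. The mature sequences are shown from RefSeq with the seed, bases 2 to 8, in capitals, because the seed sets which 3′ UTRs can pair.
hsa-miR-449a: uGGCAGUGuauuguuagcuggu
hsa-miR-449b-5p: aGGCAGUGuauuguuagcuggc
hsa-miR-34a-5p: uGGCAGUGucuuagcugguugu
The matching 7-mer, CACTGCC, was in the 3′ UTR of 1809 of 11734 genes. Their median log2 fold change was −0.01, against 0.0034 for the 9925 genes without it. The deposited counts do not measure mature miRNAs.

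**Figure D3:**
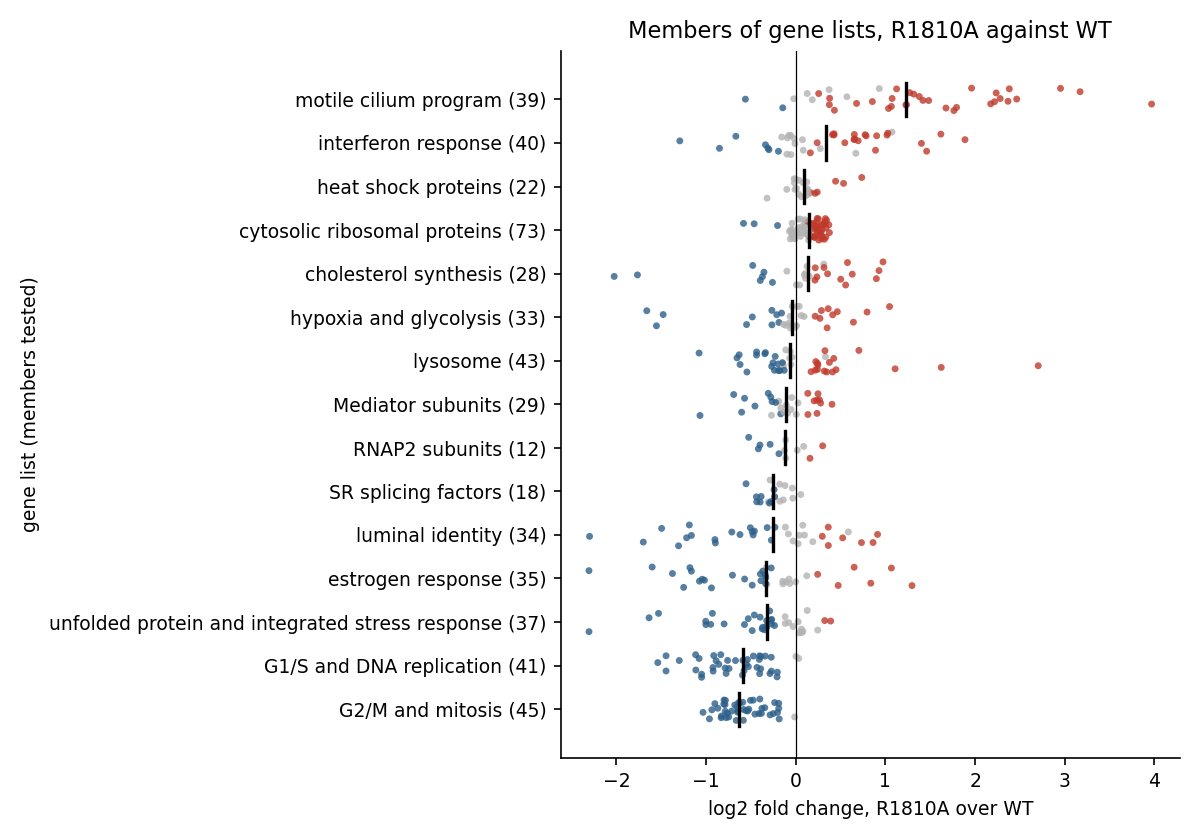
Log2 fold change of R1810A over WT for each tested member of 15 gene lists; red members were higher, blue members lower and grey members not called, and the black bar is the list's median. The motile cilium list lies mostly right of 0 and the 2 cell cycle lists lie left of it.

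Interferon response genes were more often higher than lower in R1810A. Of 40 tested 20 were higher and 7 lower (median log2 fold change 0.34), and 38 of the 40 passed the filter in both groups. IFI6 had 54.3 and 64.4 CPM in R1810A and 14.4 and 17.7 CPM in WT (1.89, SE 0.152, adjusted p = 0.0018), and IFIT1, which encodes a sensor of foreign RNA caps, had 29.3 and 34.8 CPM in R1810A and 9.70 and 11.2 CPM in WT (1.62). IFI27 (1.46) and the exonuclease gene ISG20, with 4.33 and 5.19 CPM in R1810A and 1.74 and 1.86 CPM in WT, were the next. The effector gene MX1 had 97.1 and 111 CPM in R1810A and 50.3 and 52.1 CPM in WT (1.03). ISG15 had 4.38 and 6.98 CPM in R1810A and 3.62 and 3.53 CPM in WT and did not pass (adjusted p = 0.092). The members that were lower included LGALS3BP (−1.29) and IFITM2 (−0.85).

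Cytosolic ribosomal protein genes were higher in 37 of 73 cases and lower in 3 (median 0.15), with small sizes such as RPS14 at 610 and 600 CPM in R1810A and 469 and 468 CPM in WT (log2 fold change 0.37). RPS29 (−0.58) and RPLP1 (−0.46) were lower. Ribosomal protein genes have near-identical copies, so their counts are uncertain. Cholesterol synthesis genes split: 12 of 28 were higher and 7 lower. The squalene epoxidase gene SQLE had 197 and 210 CPM in R1810A and 103 and 104 CPM in WT (0.97), and SC5D (0.93) and the synthase gene HMGCS1 (0.90) were higher too. The citrate lyase gene ACLY, with 225 and 231 CPM in R1810A and 751 and 800 CPM in WT (−1.77), was among the lower ones.

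Genes of the unfolded protein and integrated stress responses were lower in 24 of 37 cases and higher in 2 (median −0.32). STC2, the serine synthesis gene PSAT1 (−1.64), the disulfide isomerase gene PDIA4 (−1.53) and SEL1L, which acts in the disposal of misfolded proteins and had 291 and 305 CPM in R1810A and 580 and 615 CPM in WT, had the largest differences. The central chaperone gene HSPA5 had 1443 and 1587 CPM in R1810A and 1614 and 1673 CPM in WT and did not pass (adjusted p = 0.22), and DDIT3 had 46.6 and 46.1 CPM in R1810A and 46.9 and 44.1 CPM in WT (adjusted p = 0.67). ATF4, the factor of the integrated stress response, was lower by a small amount (−0.32). Heat shock genes were higher in 6 of 22 cases (27.3%, near the 28.7% of all genes), and the other 16 did not pass. The rises included HSPH1 (0.53) and DNAJB4 (0.74).

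Of 33 hypoxia and glycolysis genes 10 were higher and 10 lower (60.6% called, near the 58.5% of all genes). NDRG1 (−1.66), EGLN3 (−1.55) and PFKFB3 (−1.48) were the largest falls, and ADM stood at 1.05. Lysosome genes gave 17 higher and 18 lower of 43 (81.4% called, median −0.07). The rises included GPNMB, the cathepsin gene CTSC (1.62) and the lipase gene LIPA (1.11). LIPA had 288 and 287 CPM in R1810A and 134 and 133 CPM in WT. Among 28 p53 targets 5 were higher and 13 lower (64.3% called), with CCNG1 (−1.71), FAS (−1.61) and SESN1 (0.79). Immediate early genes gave 8 higher and 15 lower of 30 (76.7% called), with DUSP6 at −1.38 and NR4A2 at 1.39. CCN2 had 1.01 and 0.997 CPM in R1810A and 4.89 and 4.69 CPM in WT (−2.25). NR4A2 passed the filter in R1810A alone, which fixes its direction. NF-kB targets gave 3 higher and 5 lower of 16 (50% called). Of 64 nuclear genes of oxidative phosphorylation 17 were higher and 6 lower, all by less than 2-fold (35.9% called, below the share of all genes).

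The share of mitochondrial transcripts given above followed the replicate more than the group. MT-CO3 had 5694 and 3764 CPM in R1810A and 7635 and 5463 CPM in WT. Its groups overlapped, the first replicate was the higher in each, and within each replicate number R1810A was the lower. In the fit without a replicate block none of the 13 mitochondrially encoded mRNAs passed with edgeR. None had an unadjusted p under 0.05 there, and 1 passed with DESeq2. With the replicate block, described at the end, most of the 13 were called, in both directions.

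Genes of the transcription machinery were called in both directions. Of 12 RNAP2 subunit genes 5 were lower and 2 higher (58.3% called, near the share of all genes). They ran from POLR2A at −0.52 to POLR2I at 0.30, and none differed by 2-fold. POLR2D, with 25.1 and 25.6 CPM in R1810A and 34.3 and 33.3 CPM in WT (log2 fold change −0.42), and POLR2L (−0.40) were lower. Among 23 CTD kinase and phosphatase genes 11 were higher and 6 lower (73.9% called, against 58.5% of all genes). The kinase genes CDK7 (0.34) and CDK9 (0.14) and the cyclin gene CCNT1 (0.40), which serve the heptads' serines, were higher. The phosphatase gene CTDSPL had 41.3 and 41.3 CPM in R1810A and 93.6 and 96.3 CPM in WT (−1.20), the largest difference of the list.

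Of 12 genes listed around R1810, 3 were higher and 4 lower (58.3% called, against 58.5% of all genes). Beside the deiminases they included TDRD3, a reader of methylated arginine (0.26), CARM1, which can methylate this residue (0.14), and WDR77 (−0.30). XRN2, which encodes the exonuclease of termination, was listed too (0.31). Genes of pausing and elongation gave 11 higher and 12 lower of 37 (62.2% called), with AFF4 (−0.83) and NELFCD (−0.48) lower and ELL3 (0.54) and MLLT3 (0.61) higher. Mediator subunit genes gave 9 higher and 10 lower of 29 (65.5% called). MED13L, of the kinase module, had 250 and 251 CPM in R1810A and 496 and 555 CPM in WT (−1.07), and MED1, the subunit that binds nuclear receptors, was lower (−0.57).

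Genes of RNA processing differed by list. Of 18 SR protein and SR kinase genes 9 were lower and the other 9 did not pass (median −0.26, 50% called), with SRSF2 at −0.55. Of 20 cleavage and polyadenylation genes 7 were lower and 13 did not pass, with CLP1 at −0.66. The 35% called in that list lay below the 58.5% of all genes. Of 38 core spliceosome genes 13 were lower and 4 higher, with PRPF4 at −0.60; 29.8% of all genes tested were lower. Integrator subunit genes gave 3 higher and 2 lower of 15 (33.3% called). Genes that host small nucleolar RNAs were higher in 7 of 19 cases and lower in 1, GAS5 having 185 and 153 CPM in R1810A and 105 and 86.6 CPM in WT (0.82). Replication-dependent histone genes gave 6 higher and 1 lower of 12. Poly(A) selection leaves most of their transcripts out, and copies share reads, so these values are uncertain.

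Housekeeping lists lay near or below the background. Ribosome biogenesis gave 9 higher and 4 lower of 36, mitochondrial ribosomal proteins 12 and 11 of 58, the proteasome 4 and 8 of 30, aminoacyl-tRNA synthetases 6 and 2 of 20, and subunits of RNAP1 and RNAP3 7 and 5 of 19. POLR3G, a subunit gene known from stem cells, was the largest of the last group, with 4.34 and 4.64 CPM in R1810A and 1.94 and 1.80 CPM in WT (1.27).

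Antisense and lincRNA genes were more often lower than higher. Of 436 antisense genes 165 were lower and 61 higher (median log2 fold change −0.27), and of 351 lincRNA genes 108 were lower and 68 higher (median −0.12). Among 12156 protein-coding genes 3588 were lower and 3695 higher (median 0.0026). The counts used strand, so antisense genes were separated from most of their partners' reads. COLCA1 had 10.0 and 8.09 CPM in R1810A and 63.3 and 56.0 CPM in WT (−2.72), and TM4SF18-AS1 (−1.85) was lower too. KRT223P, a transcribed pseudogene with near copies among the keratin genes, had 23.7 and 23.1 CPM in R1810A and 3.41 and 3.61 CPM in WT (2.74). The lincRNA gene ENSG00000254337 (1.62) and the pseudogene OR7E91P (1.49) were higher too. THBS3-AS1 was higher but uneven, at 17.9 and 10.9 CPM in R1810A and 4.17 and 2.48 CPM in WT (2.12, adjusted p = 0.046). Of 10 nuclear long noncoding RNAs 3 were lower (TUG1 −0.52, PVT1 −0.44, JPX −0.37) and 7 did not pass. The 30% lower in that list was near the 29.8% of all genes, and its share called lay below the 58.5% of all genes.

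Gene span, the distance from a gene's start to its end, went with direction. In the 10th of genes with the longest spans, from 156 to 2305 kb, 602 were higher and 346 lower (median log2 fold change 0.11), and in the shortest 10th, up to 4.26 kb, 262 were higher and 412 lower (median −0.06). Exonic length showed no such step, with medians from −0.04 to 0.01 over its 10ths. In the 10th of genes with the highest levels 336 were higher and 470 lower (median −0.04). The span medians depend on the scaling: with total counts as library sizes they were 0.17 for the longest and −0.00157 for the shortest.

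The PADI2 knockdown gave a second set of fold changes from 4 other libraries. That experiment names neither transfected RNAP2 nor alpha-amanitin, so the 2 comparisons differ in treatment as well. The part of the treatment in any difference between them was not tested. Across 13268 genes tested in both, the log2 fold changes of R1810A over WT and siPADI2 over siCtrl had a Pearson r of 0.717 and a Spearman rho of 0.653. This describes genes within 2 pairs of groups, and genes are not independent replicates. Of these genes 5188 were called in the same direction in both, which is 67.4% of the R1810A calls and 59.0% of the siPADI2 calls, while 312 were higher in R1810A and lower after siPADI2 and 271 the reverse. After siPADI2, 66.3% of genes tested had been called. Among 617 genes called with at least 2-fold in both comparisons, 611 had the same direction. CDC20B was higher by 3.97 in R1810A and by 4.94 after siPADI2, SULF1 by 2.74 and 3.65, and RHBDL3 by 3.07 and 5.01. TNS4 was lower by −3.36 and −5.58, CHRD by −2.96 and −4.35, and POLR2A by −0.52 and −0.53.

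**Figure D4:**
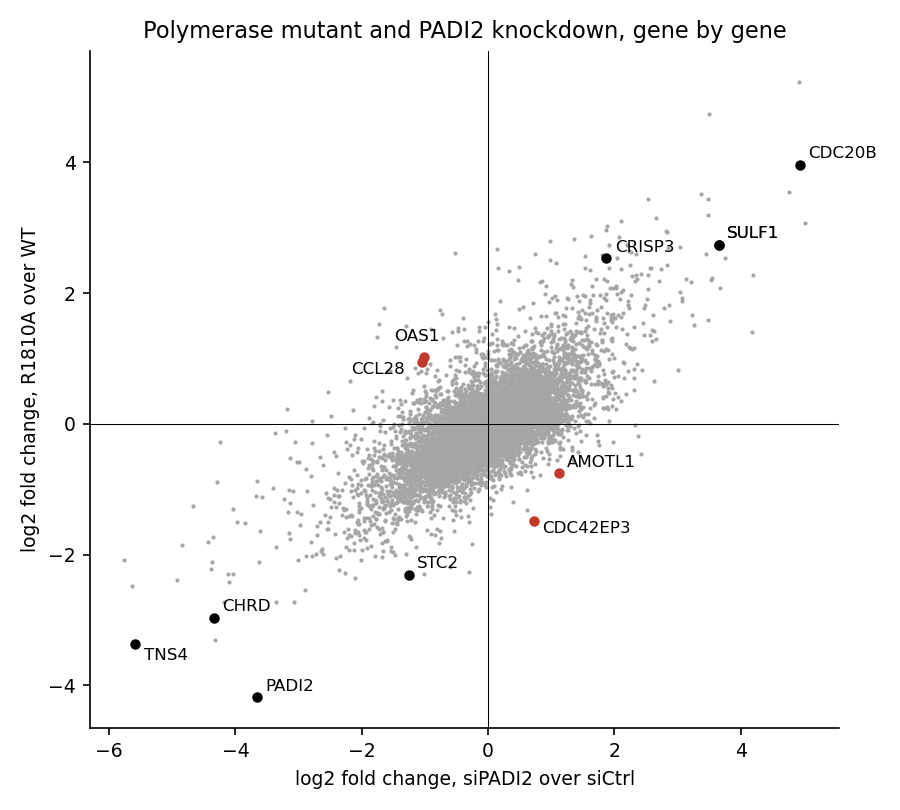
Log2 fold change after siPADI2 (x axis) against log2 fold change in R1810A (y axis) for 13268 genes tested in both. The points run along a rising diagonal, the black labelled genes lie on the same side of 0 on both axes, and the 4 red labelled genes lie on opposite sides.

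The 2 effects still differed for many genes. The difference between them, R1810A over WT minus siPADI2 over siCtrl, passed for 5157 of 14085 genes (36.6%), 2749 above and 2408 below 0. With total counts as library sizes the split was 1683 above and 3802 below, since that scaling moves the median difference of all genes to −0.14. Interferon genes were one such list. In the siRNA experiment 28 of 45 were lower (median −0.60), and the difference passed above 0 for 29 of the 40 members tested here and below 0 for 1. Their summed level was also far apart between the experiments, at 1462 CPM in R1810A and 1331 CPM in WT, against 15355 CPM after siPADI2 and 22910 CPM after siCtrl. The part of this level in the difference was not tested.

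Cholesterol synthesis (22 of 28 above, 1 below), ribosomal proteins (44 of 73 above), hypoxia and glycolysis (21 of 33 above, 3 below) and estrogen response genes (22 of 35 above, 4 below) differed in the same sense. SQLE was higher by 0.97 in R1810A and lower by −0.60 after siPADI2, and LDHA stood at −0.11 in R1810A and at −1.71 after siPADI2. PGR differed too, with −0.39 in R1810A and −1.67 after siPADI2 (difference 1.29, adjusted p = 8.7e-05). With total counts as library sizes the members above 0 numbered 21 for cholesterol synthesis, 28 for ribosomal proteins and 16 for estrogen response. The cell cycle and cilium lists had members past the test on both sides: 7 above and 9 below of 41 for G1/S, 8 above and 3 below of 45 for G2/M, and 9 above and 6 below of 39 for the cilium list, beside 36.6% of all genes in either direction. With total counts as library sizes the G2/M split turned to 2 above and 9 below.

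PADI2 knockdown also bears on 3′ UTR words, because an siRNA can lower transcripts whose 3′ UTR pairs with its seed. All 16148 words of 7 bases found in the 3′ UTRs of at least 50 genes were ranked by how low the genes that hold them were, with UTR length and GC content taken into account. ATCCACA and TACCATG were the lowest and second lowest words after siPADI2. In the R1810A libraries, ranked on their own, the same words were again the lowest and second lowest of 16148. No human mature miRNA in the RefSeq table, of 2545 entries, has a seed that pairs with all 7 bases of either word. Matches over fewer bases, and any part of miRNAs in these ranks, were not tested. Both words occur before the stop codon of the longest PADI2 transcript, at positions 743 and 770 of 4345 bases, shown here on GRCh38, minus strand, with the word in capitals.
ATCCACA in PADI2, chr1:17086663-17086683: acgctatATCCACAtcctggg
TACCATG in PADI2, chr1:17086636-17086656: gaagctcTACCATGtggtcaa
For scale, 23.6% of the longest transcripts of 13525 tested genes hold the first word and 18.9% the second. The labels give no siRNA sequence, and whether an siRNA was present in the R1810A libraries was not tested.

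In R1810A the median log2 fold change was −0.29 for the 181 genes with both words in the 3′ UTR, −0.11 for the 1647 with one and 0.02 for the 9906 with neither. Of the genes with both words 100 were lower and 31 higher, and of those with neither 2662 were lower and 3110 higher. After siPADI2 the medians were −0.18, −0.12 and 0.02, but the words were chosen on those fold changes, which fixes their direction. Genes with words have longer 3′ UTRs, a median of 5101 bases with both against 852 with neither. Within 5 bins of UTR length, genes with a word still had lower medians than genes without, by −0.13 to −0.19. With total counts as library sizes the medians in R1810A were −0.23, −0.05 and 0.08.

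Genes with neither word are 9906 of the 11734 genes with a 3′ UTR, so their values had to lie close to those of all genes. Leaving out members that hold a word is no test of what an siRNA or low PADI2 does in these libraries. Among these 9906 genes 58.3% were called, and their log2 fold changes had a Pearson r of 0.714 with those after siPADI2. Without members that hold a word, 34 of 36 G1/S genes and 40 of 41 G2/M genes were lower, 28 of 35 cilium genes were higher, 19 of 37 interferon genes were higher, and 12 of 25 estrogen response genes were lower.

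**Figure D5:**
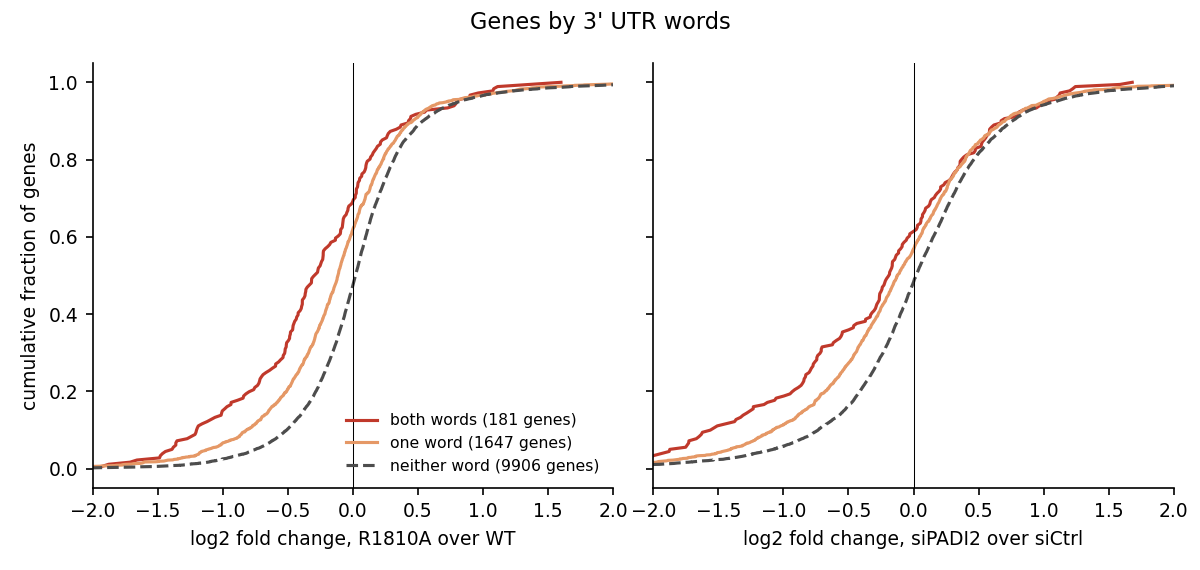
Cumulative fraction of genes by log2 fold change in R1810A (left) and after siPADI2 (right), for genes whose 3′ UTR holds both words (181), one word (1647) or neither (9906). In both panels the curve for both words lies furthest left over the negative range. The words were chosen on the fold changes of the right panel, which fixes the direction there. The fold changes of the left panel correlate with them across genes.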

How the data were processed

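The authors deposited whole-number counts per gene, not normalized, from stranded poly(A) libraries. The tools named are Trimmomatic (trimming), STAR (alignment) and featureCounts (counting), per the submitters' processing notes. The counter was featureCounts 1.5.1 with strand option 2 on GENCODE 19 genes (hg19), per the file headers, and no option for multi-mapping reads was set, so genes with near-identical copies have incomplete counts. Each table lists 57820 genes, 52338 of which were matched to GENCODE 29 by stable identifier for symbols, biotypes and 3′ UTRs. Total counts ranged from 122245888 to 130811834 in the 4 libraries compared and from 44318629 to 132764704 in the 4 siRNA libraries. The chromatin RNA libraries were not used.

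Genes with at least 1 CPM of the total count in both libraries of one group were fitted with edgeR 4.0.16 in R 4.3.3 (TMM scaling, robust quasi-likelihood F test) on the 4 libraries alone, with Benjamini-Hochberg adjustment over all 13801 genes and a threshold of 0.05. Each SE is the absolute log2 fold change over the root of its F statistic. CPM in the text are edgeR's, on the TMM-scaled library size, except beside the filter, where the total count was used. Differences between the R1810A and siPADI2 effects were contrasts in a joint fit of 8 libraries. The fit was also run on simulated counts. These were drawn separately for each library, without the correlation between same-numbered replicates given below, so they do not test its effect. Libraries of a group differed by far more than sampling noise (chi-square per degree of freedom 91.7 in R1810A and 62.8 in WT), so none was counted as a duplicate.

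Named genes were PADI2, POLR2A, MYC, CCND1, ESR1 and PGR; the 15 called protein-coding genes with the largest rise and fall at 10 CPM or more; the 6 largest changes in CPM each way; the 4 largest noncoding changes each way at 5 CPM or more; and up to 4 called members of each of 38 lists. Other members were named after their values were seen. Some genes that this rule names are not reported here. The comparison, the lists and the words were chosen with earlier results of these data known. List counts are descriptions beside the share of all genes called. Words were ranked by the partial correlation of their presence with the log2 fold change, given 3′ UTR length and GC content. Sequences came from GENCODE 29 transcripts (GRCh38) and RefSeq tables (GRCh38.p14). Alternatives were other scalings, filters, DESeq2 1.42.0, a replicate block, a GC correction, a joint fit, a 1.5-fold null and each library left out; those for the difference between effects and for the words were added after the data were seen.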

Additional observations from a re-analysis of the deposited data

Results flagged for a closer look

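The genes with opposite, called directions in R1810A and after siPADI2, at 10 CPM or more in R1810A or WT, were ordered by the smaller of their 2 sizes, and the first 5 each way are given. The flag is the test of the difference itself, the edgeR interaction contrast; passing it was part of the choice, so the p-values are descriptions. OAS1, which encodes an interferon-induced synthetase, had 13.1 and 16.8 CPM in R1810A and 7.09 and 7.71 CPM in WT, against 398 and 518 CPM after siPADI2 and 924 and 914 CPM after siCtrl, so that the difference of the log2 fold changes was 2.05 (adjusted p = 0.00043). The chemokine gene CCL28 had 38.4 and 36.7 CPM in R1810A and 19.7 and 19.3 CPM in WT, against 39.8 and 39.4 CPM after siPADI2 and 77.0 and 84.1 CPM after siCtrl, a difference of 2.00. SERHL2 (1.84), the adhesion gene CEACAM1 (1.81) and GNGT1 (1.65) were also higher in R1810A and lower after siPADI2.

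Genes lower in R1810A and higher after siPADI2 included CDC42EP3, which encodes an effector of the GTPase CDC42. It had 36.9 and 38.1 CPM in R1810A and 105 and 105 CPM in WT, against 23.6 and 24.4 CPM after siPADI2 and 13.7 and 14.9 CPM after siCtrl, a difference of −2.20. The differences were −1.87 for AMOTL1, −1.51 for UPK3B, −1.41 for CBS and −1.31 for RND3.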

How the results depend on the processing

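No named gene of 192 changed direction under any alternative run, and 178 kept their side of the threshold under all of them other than the 1.5-fold null. Calls numbered 6532 to 7556 (3252 to 3723 higher, 3280 to 3833 lower) with 1 library left out, and 1641 (779 higher, 862 lower) against the 1.5-fold null. There, falls numbered 19 for G1/S, 14 for G2/M, 10 for estrogen response and 8 for stress response genes, and rises 9 for interferon, 3 for cholesterol and 0 for ribosomal protein genes. Estrogen response falls numbered 12 among members with neither word. With total counts the median log2 fold change was 0.018 for the highest levels, −0.00157 for the shortest and 0.17 for the longest spans, and 0.080, −0.055 and −0.23 for neither, one and both words. With the upper quartile these were 0.0034, −0.016, 0.16, 0.065, −0.069 and −0.24. GC correction gave −0.024 for the shortest spans and 0.041 for neither word. Without 1 library, neither word ranged from 0.019 to 0.034 and both words from −0.32 to −0.26. The difference between effects passed for 861 genes against the 1.5-fold null (529 above, 332 below) and split 1683 above to 3802 below with total counts. Without 1 library it passed for 3787 to 5110 genes. With no filter the calls numbered 9751, of 32816 genes tested.

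The groups share replicate numbers, which no label explains. Replicate 1 minus replicate 2 correlated at 0.78 between the groups, and with the replicate block 10769 genes were called (5219 higher, 5550 lower), 8067 of them also called without it. Of the 13 mitochondrially encoded mRNAs, none called without the block, 5 were higher and 7 lower with it. Among the 192 genes counted above, no other call changed under it beside MT-CO3 and MT-ND6, which were then called lower. Genes outside the 192 that are given above as not passing, such as GREB1, FOXA1 and ISG15, were not followed under it.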
